A study of Mus musculus with 21 samples.

Results

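The genes described here are 9 named components of nuclear factor kappa B (NF-kB) signalling in mouse quadriceps, chosen by symbol from the 53738 gene symbols of a bulk RNA-seq table. They are the transcription factor subunits Nfkb1, Nfkb2 and Relb, the inhibitors and feedback genes Nfkbia, Nfkbiz, Bcl3, Tnfaip3 and Zfp36, and the adhesion molecule gene Icam1. All 9 symbols were found in the table. Adult male wild type mice of the strain C57/Bl6 were used, in 7 groups of 3 libraries. Sedentary mice were the baseline group without the bout. Untrained mice had no wheel training and ran a bout on a treadmill until exhaustion, and quadriceps was taken 0 h, 6 h or 72 h later. The methods describe acclimatisation to the treadmill before the performance tests, of which the last was the bout. Trained mice had 12 weeks of voluntary wheel running before the same bout and the same 3 times. No trained group without the bout was among the samples, so a change against sedentary muscle in a trained group holds both the training and the bout. The values are TPM, read numbers corrected for transcript length and scaled to a common total per library. Replicate 1 of untrained muscle at 0 h and replicate 1 of trained muscle at 0 h carried the same value for each of the 53738 symbols, so the table holds 20 distinct libraries of 21, and which of the 2 groups that library came from is not known. Values at 0 h below hold that library in both groups unless stated otherwise, and some are also given without it.

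NF-kB is a family of dimeric transcription factors. In resting cells the dimers are held in the cytoplasm by inhibitors of kappa B (IkB proteins), and stimuli such as TNF or IL-1 activate the IkB kinase, which marks the inhibitors for degradation and lets the dimers enter the nucleus. Several genes that the dimers switch on are inhibitors of the same pathway, among them the genes of IkB alpha and of the ubiquitin-editing enzyme A20, which closes a negative feedback loop. In skeletal muscle the pathway is known for its part in inflammation, regeneration and atrophy, and contraction is among the stimuli reported to engage it.

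In the annotation of GRCm39 (GENCODE), the build the authors used, all 9 are protein-coding genes. Nfkbia lies on chr12:55535332-55539432 on the minus strand and Zfp36 on chr7:28076209-28079710 on the minus strand. Nfkb1 lies on chr3:135290264-135397742 (minus strand), Nfkb2 on chr19:46292759-46303812 (plus strand), Nfkbiz on chr16:55631738-55659262 (minus strand), Tnfaip3 on chr10:18874201-18891405 (minus strand) and Icam1 on chr9:20926672-20940113 (plus strand). Relb (chr7:19339017-19363425, minus strand) and Bcl3 (chr7:19541553-19557570, minus strand) also lie on chromosome 7, with 178127 bases between them.

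The sequences before the start sites are shown for Zfp36 and Nfkbia, the members called most often, and for Nfkb2, whose window held the most kappa B matches. RefSeq promoter windows (build GRCm38.p6) were matched by symbol for 6 of the 9 members, Nfkb2, Nfkbia, Tnfaip3, Bcl3, Zfp36 and Icam1. No window was matched for Nfkb1, Relb and Nfkbiz. Each stretch holds the 250 bases before a start, 5′ to 3′ on the strand of the gene. Capitals mark matches to the kappa B consensus, the element that NF-kB dimers bind, and in Zfp36 the CArG box, the element bound by serum response factor. The windows are chr12:55492648-55492897 (minus strand) for Nfkbia, chr19:46304487-46304736 (plus strand) for the first of 3 starts of Nfkb2 and chr7:28379229-28379478 (minus strand) for Zfp36, all in GRCm38.p6.
Nfkbia: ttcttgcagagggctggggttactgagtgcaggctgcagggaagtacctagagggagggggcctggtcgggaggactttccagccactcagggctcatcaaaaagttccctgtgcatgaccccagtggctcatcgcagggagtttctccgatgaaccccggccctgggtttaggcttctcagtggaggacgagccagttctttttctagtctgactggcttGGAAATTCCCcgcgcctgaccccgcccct
Nfkb2: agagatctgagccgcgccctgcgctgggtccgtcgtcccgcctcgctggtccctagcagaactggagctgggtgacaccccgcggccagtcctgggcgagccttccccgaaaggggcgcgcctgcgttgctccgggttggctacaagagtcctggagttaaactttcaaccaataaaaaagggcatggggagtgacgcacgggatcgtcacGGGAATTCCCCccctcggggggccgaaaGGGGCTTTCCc
Zfp36: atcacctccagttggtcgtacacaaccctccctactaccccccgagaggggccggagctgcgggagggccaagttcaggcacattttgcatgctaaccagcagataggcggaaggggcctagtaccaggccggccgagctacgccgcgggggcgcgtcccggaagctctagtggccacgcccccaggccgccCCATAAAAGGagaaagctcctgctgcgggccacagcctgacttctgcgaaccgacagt
The kappa B match of Nfkbia ended 19 bases before the start. The first window of Nfkb2 held 3 matches, of which a pair overlapped by all but 1 base, and the windows of its other two starts held 1 each. Zfp36 held no kappa B match in its window and 1 CArG match, 48 bases before the start. Short stretches with 8 flanking bases show the matches of Tnfaip3, which held 2 in the first of its 2 windows, and those of the later starts of Nfkb2.
Tnfaip3, 115 bases before the start: ctcacgcgGGGACACCCCggggcggg
Tnfaip3, 2 bases before the start: tttccatcGGAAATCCCCct
Nfkb2, 226 bases before the second start: cgacggcaGGAATGTCCCcacaaaag
Nfkb2, 215 bases before the third start: gtattttcGGGACTTTCCtaagcagc
Both strands were searched. The kappa B consensus was found in 5 of 9 windows of the members (genes Nfkb2, Nfkbia and Tnfaip3) and in 7.25% of all 32851 RefSeq windows of 250 bases, and 1.03% held 2 or more. Of the 5 windows 3 belong to Nfkb2, whose later windows overlap each other, and the share by gene was not computed. The AP-1 element TGACTCA or TGAGTCA was found in Tnfaip3 and in 4.46% of all windows, close to but not overlapping the kappa B match. The CRE element TGACGTCA was found in no window of the members and in 1.55% of all windows, and the CArG box in Zfp36 and in 1.47% of all windows. Icam1 and Bcl3 held none of the 4 elements. A match describes the letters in the window and not a bound site.

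The members were low to moderate in abundance. Over the 21 libraries the means were 10.02 TPM for Nfkbia, 6.91 TPM for Zfp36, 5.57 TPM for Nfkb1, 2.55 TPM for Relb and 2.23 TPM for Nfkb2. These 5 passed the filter of a mean of at least 1 TPM, as did 11819 gene symbols in all. Icam1 (0.983 TPM), Nfkbiz (0.933 TPM), Tnfaip3 (0.878 TPM) and Bcl3 (0.447 TPM) lay below it, and their changes were estimated in the same model fitted without a filter. Changes are log2 fold changes on the log2(TPM + 0.5) scale, which understates the change of genes this low, tested with limma and adjusted over all genes of the fit (Benjamini-Hochberg). Called means that a gene passed both an adjusted p of 0.05 and a change of 1.5-fold, upwards or downwards. TPM values keep no read number, so the depth behind a value is unknown and its precision rests on the spread among 3 libraries.

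The tissue carried its label. The summed level of 6 muscle fibre markers (Acta1, Ckm, Myh4, Mb, Ttn and Des) lay between 38070 and 52140 TPM in every library. Endothelial markers summed to between 79.9 and 113.5 TPM (9 of 9 above the filter) and macrophage markers to between 37.1 and 84.0 TPM (8 of 10). Markers of neutrophils (0 of 8 above the filter, summed 0.737 to 2.32 TPM, Ly6g at 0 in 19 libraries and Ngp at 0 in 16) and of lymphocytes (0 of 6, summed 0.369 to 1.41 TPM) were close to 0. Macrophage sums were 44.6 to 49.0 TPM in sedentary muscle, 56.0 to 61.7 at untrained 0 h, 39.8 to 84.0 at untrained 6 h, 63.9 to 68.7 at untrained 72 h, 56.0 to 56.8 at trained 0 h, 37.1 to 54.8 at trained 6 h and 47.2 to 54.3 at trained 72 h. The part of these cells in the changes below was not tested. In bulk tissue, fewer cells of a type and less RNA per cell cannot be told apart. Genes of the mitochondrial genome held 42.2% to 47.0% of all TPM in sedentary libraries and 37.8% to 40.6% in those at 0 h. The median log2 fold change over all tested genes against sedentary was 0.10 at untrained 0 h and 0.13 at trained 0 h. At 6 h the mitochondrial share was 40.6% to 43.7% in untrained and 45.7% to 47.0% in trained muscle. At 72 h it was 42.3% to 44.3% in untrained and 46.7% to 48% in trained muscle, so the training states did not overlap at either time. Between them the median log2 fold change over all tested genes was -0.04 at 6 h and -0.08 at 72 h.

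**Figure D1:**
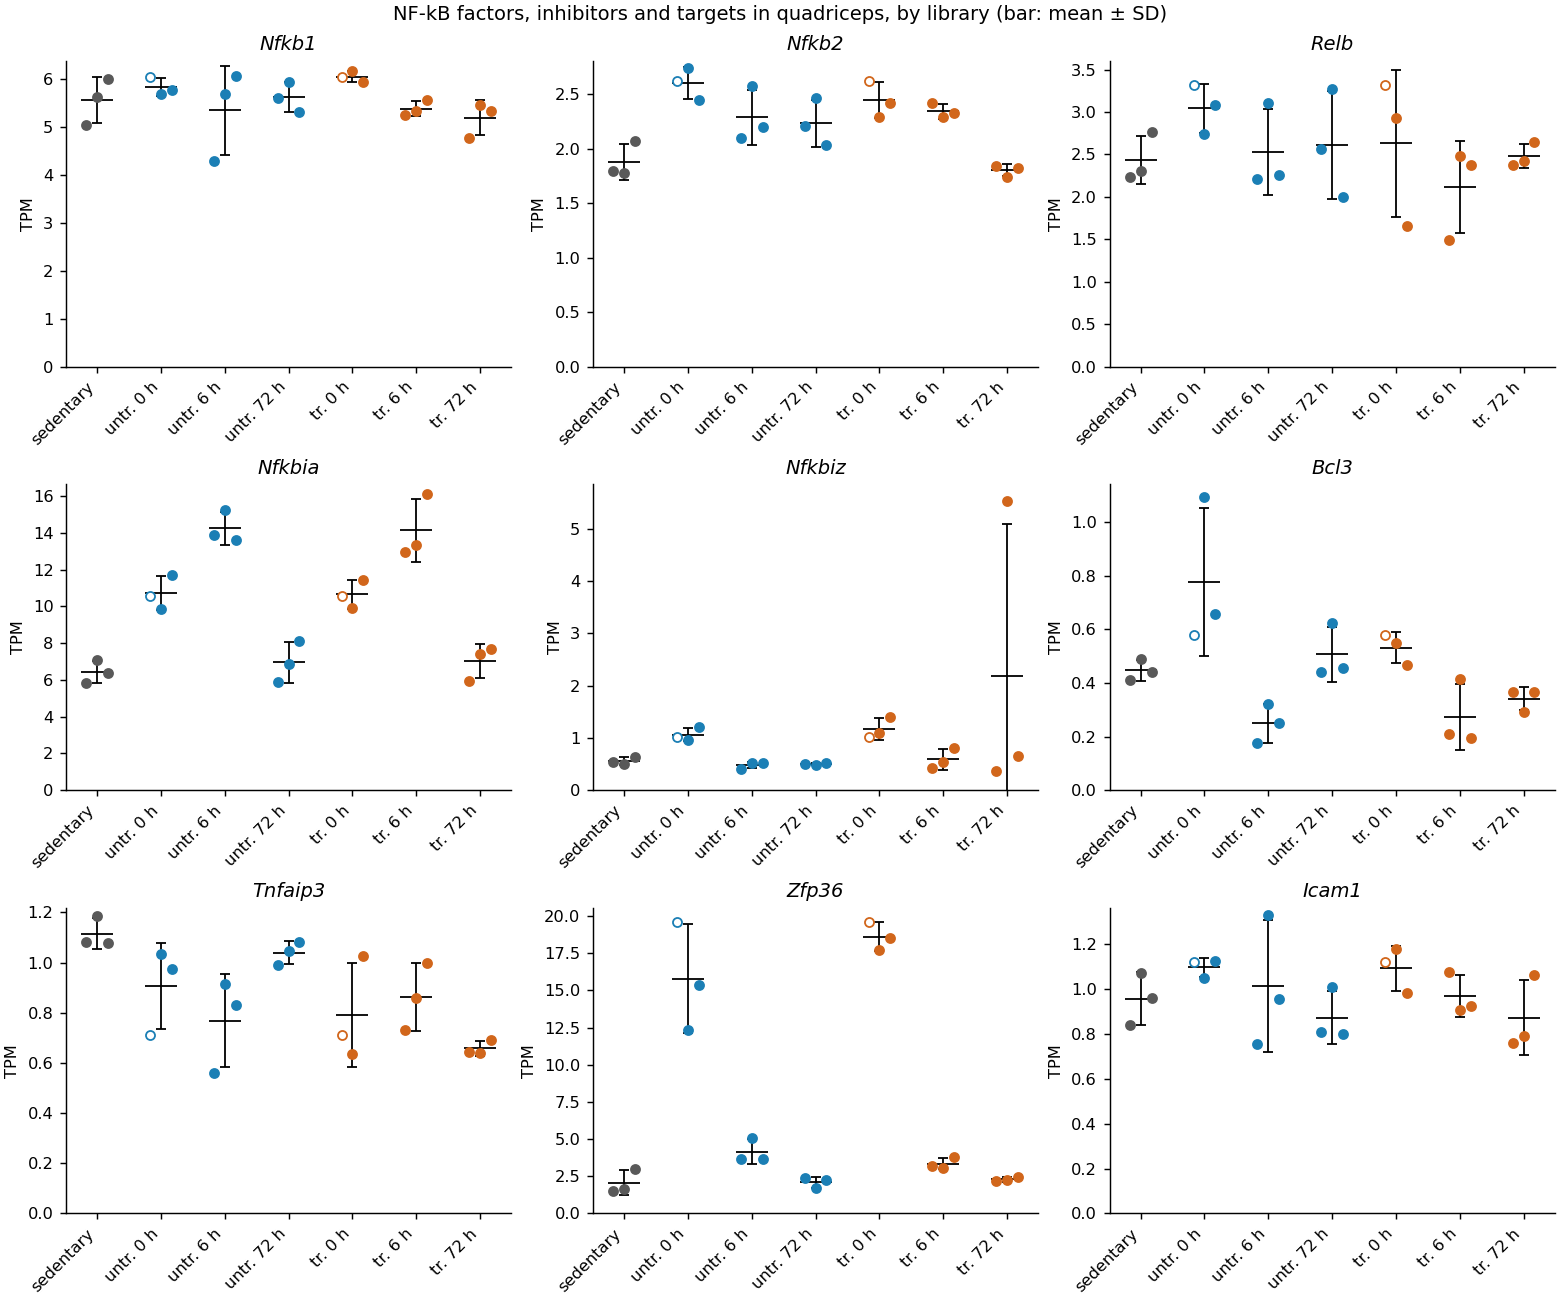
TPM (y axis, from 0) of the 9 members in each of the 7 groups (x axis; untr., untrained; tr., trained). Points are libraries, open points are the library deposited in both 0 h groups, and bars give the mean ± SD of 3 libraries; Zfp36 stood highest at 0 h, Nfkbia stood highest at 6 h, and Nfkbiz had a single high library at trained 72 h.

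Zfp36 encodes tristetraprolin, an RNA-binding protein that speeds the decay of messages with AU-rich elements, those of TNF and other cytokines among them. It had the largest change of the 9 members. Sedentary libraries held 1.54, 1.66 and 3.02 TPM. Directly after the bout the level was 19.6, 12.4 and 15.4 TPM in untrained and 19.6, 17.7 and 18.6 TPM in trained muscle. The lowest 0 h library (12.4 TPM) stood far above the highest sedentary one (3.02 TPM). The mean rose from 2.07 ± 0.820 TPM (SD, n = 3) to 15.8 ± 3.66 TPM (untrained) and 18.6 ± 0.973 TPM (trained), a log2 fold change of 2.68 ± 0.19 (SE; limma adjusted p = 2.5e-07) and 2.94 ± 0.19 (limma adjusted p = 8.5e-08). Without the shared library the changes were 2.52 and 2.90 on the log2 scale, and both remained called.

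At 6 h Zfp36 had fallen to 3.69, 5.11 and 3.64 TPM in untrained and 3.22, 3.04 and 3.77 TPM in trained muscle. These libraries still stood above all 3 sedentary ones, and sedentary replicate 3 was the closest to them. The fall from 0 h was -1.80 ± 0.19 on the log2 scale in untrained (SE; limma adjusted p = 2.1e-05) and -2.32 ± 0.19 in trained muscle (limma adjusted p = 1.2e-06). Against sedentary muscle the change at 6 h was 0.88 (limma adjusted p = 0.0077) in untrained muscle, which was called, and 0.62 (limma adjusted p = 0.051) in trained muscle, which was not. The untrained call was lost when only the 2 groups compared were in the model (limma adjusted p = 0.19). Over the other alternatives, apart from leaving out single replicates, the limma adjusted p ran from 0.0033 to 0.020. The trained value depended on sedentary replicate 3, without which the change was 0.87 (limma adjusted p = 0.0056). Its adjusted p in limma ran from 0.019 to 0.21 over the alternatives other than leaving out single replicates. By 72 h the level was 2.41, 1.69 and 2.23 TPM in untrained and 2.16, 2.27 and 2.44 TPM in trained muscle, and these ranges lay within that of sedentary muscle.

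Nfkbia encodes IkB alpha, the inhibitor that retains NF-kB dimers in the cytoplasm and that is resynthesised as their target. Its time course differed from that of Zfp36, with a rise at 0 h and higher values at 6 h. Sedentary libraries held 5.85, 7.08 and 6.36 TPM. At 0 h the level was 10.6, 9.87 and 11.7 TPM in untrained and 10.6, 9.93 and 11.5 TPM in trained muscle. At 6 h it was 13.9, 15.3 and 13.6 TPM in untrained and 12.9, 13.4 and 16.1 TPM in trained muscle. The 3 levels did not overlap in either training state, and the 2 training states overlapped at each time.

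Relative to sedentary muscle, Nfkbia rose by 0.70 ± 0.12 on the log2 scale at untrained 0 h (SE; limma adjusted p = 0.0014) and 0.69 ± 0.12 at trained 0 h (limma adjusted p = 0.0015). At 6 h the rise was 1.09 ± 0.12 in untrained (limma adjusted p = 1.8e-05) and 1.08 ± 0.12 in trained muscle (limma adjusted p = 5.6e-05), from a mean of 6.43 ± 0.618 TPM (SD, n = 3) in sedentary muscle to 14.3 ± 0.897 and 14.1 ± 1.73 TPM. All 4 changes were called. The size of the 0 h change depended on how libraries were scaled. With TPM rescaled after genes of the mitochondrial genome and the 10 most abundant genes were left out it was 0.53 (untrained) and 0.51 (trained), and with median-of-ratios scaling 0.60 and 0.56, so that the trained call was lost under both and the untrained call under the first, by size and not by adjusted p. The limma adjusted p of the 0 h changes stayed between 3.9e-04 and 0.031 in the alternatives other than leaving out single replicates. The step from 0 h to 6 h was 0.40 in untrained (limma adjusted p = 0.041) and 0.39 in trained muscle (limma adjusted p = 0.027), below the threshold on size. Without the shared library the adjusted p values in limma were 0.12 and 0.079. Under TPM rescaled as above the step was called in trained muscle and not in untrained muscle. At 72 h Nfkbia was at 5.88, 6.87 and 8.10 TPM in untrained and 5.95, 7.42 and 7.66 TPM in trained muscle, which overlapped with sedentary muscle.

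**Figure D2:**
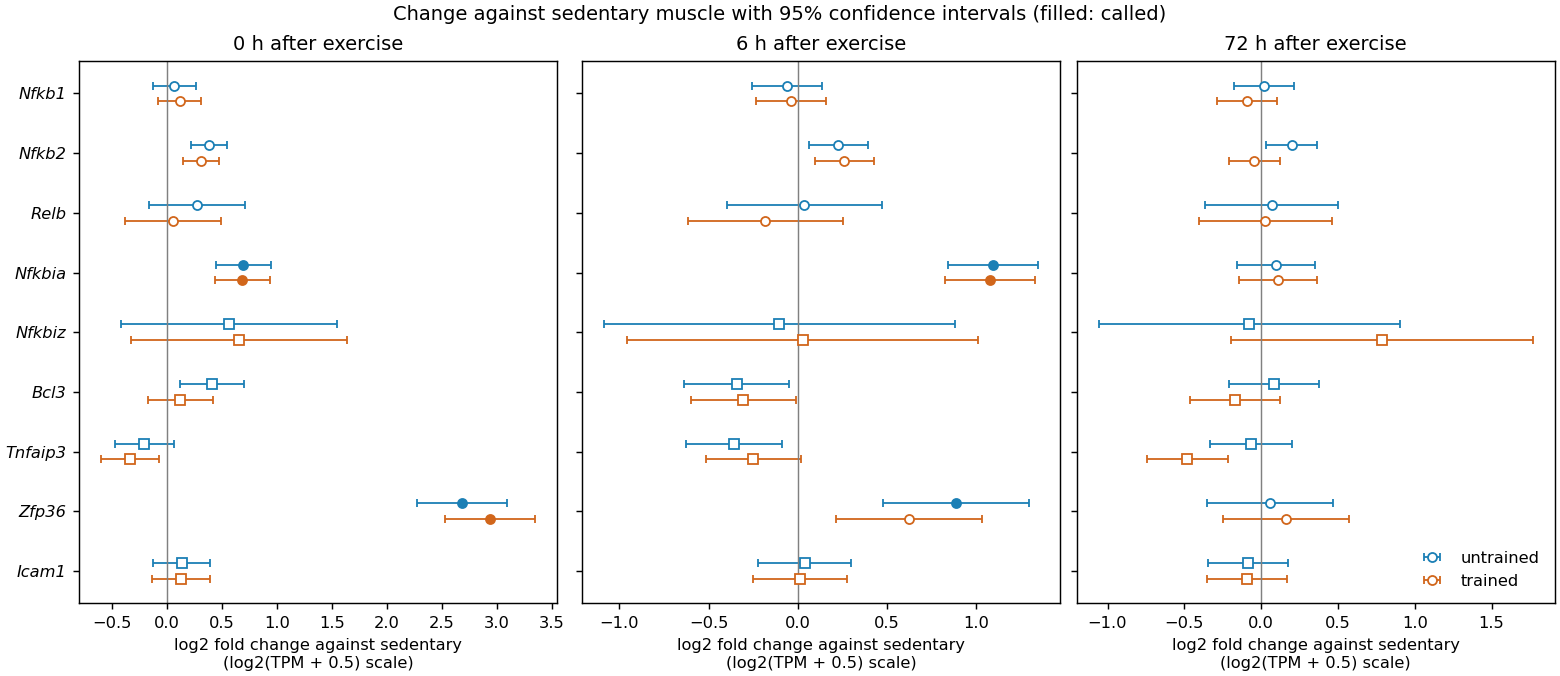
Log2 fold change against sedentary muscle (x axis, log2(TPM + 0.5) scale, with a different range in each panel) of the 9 members at each time after the bout, with 95% confidence intervals from limma. Circles are members above the expression filter, squares members below it, and filled symbols are called; the filled symbols are those of Nfkbia and Zfp36 at 0 h, Nfkbia at 6 h in both states and Zfp36 at untrained 6 h.

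A ratio of 2 genes within a library is not altered by the scaling of that library, so the inhibitor was also set against the transcription factor subunits (chosen after the values were seen, as a description with no test). The denominator was the summed TPM of the 5 subunits Nfkb1, Nfkb2, Relb, Rela and Rel. That sum was not constant. It was 14.29 to 16.95 TPM in sedentary libraries, 18.89 to 19.36 TPM at untrained 0 h and 17.31 to 18.89 TPM at trained 0 h. At 6 h the sum was 13.05 to 17.8 TPM in untrained and 14.42 to 15.42 TPM in trained muscle. Rela and Rel, neither of them called, each lay above the sedentary libraries at 0 h in both states. In sedentary libraries Nfkbia amounted to 0.375 to 0.496 of that sum. It amounted to 0.510 to 0.614 at untrained 0 h and 0.528 to 0.662 at trained 0 h, and to 0.823 to 1.06 at untrained 6 h and 0.875 to 1.05 at trained 6 h. At 72 h the ratio was 0.383 to 0.548 in untrained and 0.427 to 0.495 in trained muscle. The ratios at 0 h thus lay above those of sedentary muscle, and those at 6 h above those at 0 h, without overlap. Against Nfkb1 alone the ratio ran from 1.06 to 1.26 in sedentary muscle, from 1.61 to 2.03 at 0 h and from 2.24 to 3.23 at 6 h. Zfp36 amounted to 0.234 to 0.474 of Nfkbia in sedentary muscle, to 1.25 to 1.86 at 0 h and to 0.228 to 0.334 at 6 h, so that the order of the 2 transcripts was reversed in the 0 h libraries and in no other of the 21.

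**Figure D3:**
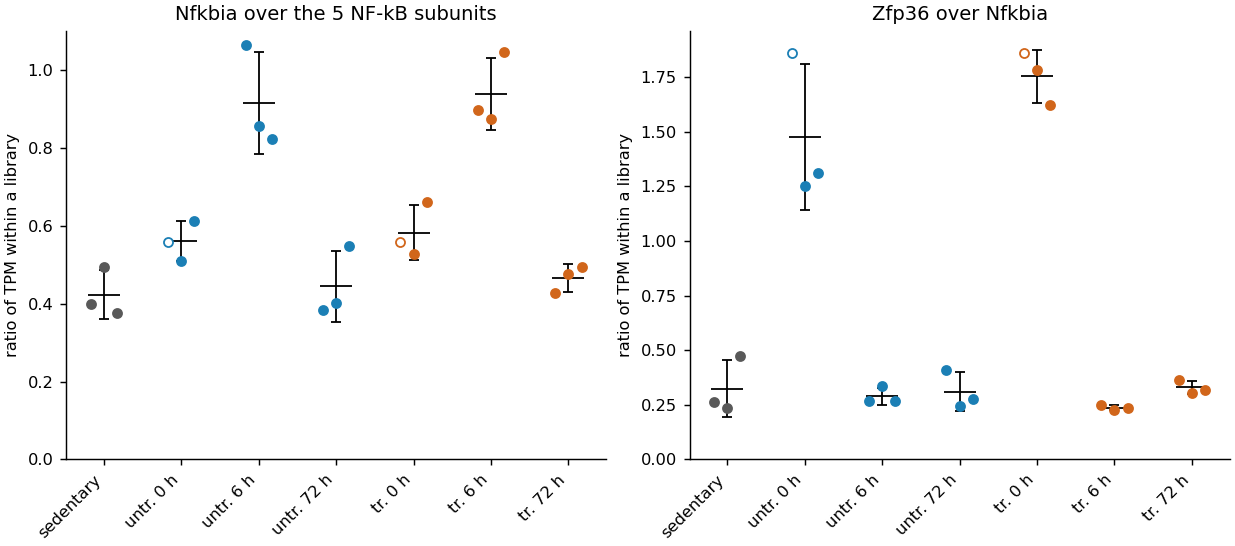
Ratio of TPM within each library (y axis, from 0, no unit) of Nfkbia to the sum of the 5 NF-kB subunits (left) and of Zfp36 to Nfkbia (right), by group. Points are libraries, open points the library deposited in both 0 h groups, bars the mean ± SD of 3; the left ratio was highest at 6 h (0.823 to 1.06) and the right ratio at 0 h (1.25 to 1.86).

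None of the 3 subunits was called in any comparison. Nfkb2 encodes the precursor p100 and its product p52, the DNA-binding partner of the non-canonical branch. Its libraries held 1.80, 1.77 and 2.07 TPM in sedentary muscle. It stood at 2.62, 2.74 and 2.45 TPM at untrained 0 h, at 2.62, 2.29 and 2.42 TPM at trained 0 h, at 2.10, 2.57 and 2.20 TPM at untrained 6 h and at 2.42, 2.29 and 2.33 TPM at trained 6 h. All of these libraries lay above the sedentary ones. The log2 fold changes were 0.38 (95% confidence interval 0.22 to 0.55; limma adjusted p = 0.0055) and 0.31 (0.14 to 0.47; limma adjusted p = 0.021) at 0 h, and 0.23 (limma adjusted p = 0.084) and 0.26 (limma adjusted p = 0.044) at 6 h, for untrained and trained muscle in turn. None reached the threshold on size. Apart from leaving out single replicates, limma adjusted p over the alternatives ran from 0.0044 to 0.089 at untrained 0 h. At trained 0 h it ran from 0.018 to 0.26, so neither value passed 0.05 under each of them. At 72 h Nfkb2 was at 2.21, 2.46 and 2.03 TPM in untrained and at 1.84, 1.74 and 1.83 TPM in trained muscle. The trained libraries lay below the untrained ones without overlap, and the difference of -0.24 on the log2 scale was not called (limma adjusted p = 0.17).

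Nfkb1 encodes p105 and its product p50, the most widely used DNA-binding subunit, and Relb the transactivating partner of p52. Nfkb1 ranged from 4.30 to 6.18 TPM over all libraries and Relb from 1.49 to 3.31 TPM. For both genes each group overlapped with the next in the order of means. The order of Relb ran from untrained 0 h, with the highest mean (3.05 ± 0.288 TPM, SD, n = 3), to trained 6 h, the lowest (2.12 ± 0.547 TPM). For Nfkb1 the highest mean was that of trained 0 h (6.06 ± 0.120 TPM) and the lowest that of trained 72 h (5.19 ± 0.366 TPM). Over the 11 comparisons the log2 fold change of Nfkb1 lay between -0.15 and 0.12 (lowest limma adjusted p = 0.23, confidence intervals within -0.35 to 0.31) and that of Relb between -0.24 and 0.27 (lowest limma adjusted p = 0.42, within -0.67 to 0.71). The intervals of Relb reach past 1.5-fold, so a change of that size is not excluded for it.

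Nfkbiz and Bcl3 encode nuclear IkB proteins, which bind p50 and p52 on DNA and alter the transcription of NF-kB target genes. Nfkbiz held 0.528, 0.496 and 0.641 TPM in sedentary muscle, 1.01, 0.960 and 1.21 TPM at untrained 0 h and 1.01, 1.08 and 1.40 TPM at trained 0 h. The 0 h libraries lay above the sedentary ones in both states. At 6 h it was at 0.408, 0.517 and 0.516 TPM in untrained and 0.416, 0.531 and 0.809 TPM in trained muscle, below the 0 h libraries. At untrained 72 h it was at 0.505, 0.483 and 0.509 TPM. At trained 72 h the 3 libraries held 0.362, 5.53 and 0.653 TPM, so replicate 2 stood 3.95 times above the highest of the other libraries. Among the tested genes and the members, Nfkbiz was the only gene that stood at least 3 times above every other library there, and such genes numbered 0 to 17 in the other libraries. This library widens the spread of Nfkbiz in the shared model. The 0 h changes of 0.56 in untrained (95% confidence interval -0.42 to 1.55; limma adjusted p = 0.65 without a filter) and 0.65 in trained muscle (-0.33 to 1.64; limma adjusted p = 0.55) were not called. Over the alternatives other than leaving out single replicates, the limma adjusted p ran from 0.12 and 0.15 upwards. When trained 72 h replicate 2 was left out of the model, which was tried once the values were known, the change of Nfkbiz at trained 0 h was called (0.65, 0.36 to 0.95; limma adjusted p = 0.017), and that at untrained 0 h passed the adjusted p but not the size (0.56, 0.27 to 0.86; limma adjusted p = 0.042). In the same fit the falls from 0 h to 6 h were called in untrained (-0.67, limma adjusted p = 0.012) and trained muscle (-0.63, limma adjusted p = 0.013), which with that library in the model had an adjusted p of 0.53 and 0.51 in limma.

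Bcl3 was the least abundant member. Sedentary libraries held 0.412, 0.489 and 0.442 TPM. Untrained muscle had 0.580, 1.09 and 0.658 TPM at 0 h and 0.177, 0.321 and 0.250 TPM at 6 h, so that it stood above the sedentary libraries at 0 h and below them at 6 h. Trained muscle had 0.580, 0.548 and 0.468 TPM at 0 h and 0.209, 0.413 and 0.196 TPM at 6 h. The fall from 0 h to 6 h in untrained muscle was -0.75 ± 0.14 on the log2 scale (SE; limma adjusted p = 0.0046 in the fit without a filter) and was called, as were 1.01% of the 36627 genes of that fit in this direction. It was no longer called without untrained 0 h replicate 2 (-0.58), with a pseudocount of 1 (-0.50), or with only those 2 groups in the model (limma adjusted p = 0.24). Over the other alternatives, apart from leaving out single replicates, its limma adjusted p ran from 0.0021 to 0.011. In trained muscle the change over the same interval was -0.43 (limma adjusted p = 0.075). Against sedentary muscle the changes of Bcl3 were 0.41 (limma adjusted p = 0.15) and 0.12 (limma adjusted p = 0.76) at 0 h and -0.34 (limma adjusted p = 0.28) and -0.30 (limma adjusted p = 0.35) at 6 h, for untrained and trained muscle in turn. At 72 h it was at 0.440, 0.625 and 0.455 TPM in untrained and 0.367, 0.292 and 0.366 TPM in trained muscle.

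Tnfaip3 encodes A20, which edits ubiquitin chains on adaptors upstream of the IkB kinase. It is a standard target of NF-kB. In most exercised groups its libraries lay below the sedentary ones, and no change passed the test. Sedentary libraries held 1.08, 1.19 and 1.08 TPM. The level was 0.713, 1.04 and 0.975 TPM at untrained 0 h, 0.713, 0.636 and 1.03 TPM at trained 0 h, 0.562, 0.913 and 0.832 TPM at untrained 6 h and 0.732, 0.857 and 1.00 TPM at trained 6 h. Untrained muscle at 72 h held 0.992, 1.05 and 1.08 TPM and trained muscle 0.642, 0.639 and 0.693 TPM, the lowest mean of the 7 groups (0.658 ± 0.0302 TPM, SD, n = 3). In 5 of the 6 exercised groups every library lay below the lowest sedentary library, and untrained 72 h overlapped with it. The log2 fold changes were small on the scale used, from -0.48 at trained 72 h (95% confidence interval -0.75 to -0.21) to -0.07 at untrained 72 h, and none passed the test (lowest limma adjusted p over the 6 comparisons = 0.18). At 72 h, trained muscle stood -0.41 (limma adjusted p = 0.29) from untrained muscle, with no overlap between the libraries.

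Icam1 encodes an adhesion molecule that endothelial cells display to leukocytes and that NF-kB induces. It ranged from 0.754 to 1.33 TPM over all libraries, with both extremes at untrained 6 h. Group means lay between 0.872 ± 0.167 TPM (trained 72 h, SD, n = 3) and 1.10 ± 0.0424 TPM (untrained 0 h), and neighbouring groups in the order of means overlapped throughout. The log2 fold change lay between -0.12 and 0.14 over the 11 comparisons, with every 95% confidence interval inside -0.38 to 0.40, and no adjusted p below 0.69 (limma without a filter).

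All comparisons with sedentary muscle share the same 3 sedentary libraries. Counted over the list, 2 of the 5 members above the filter were called higher than sedentary at untrained 0 h and 2 of 5 at trained 0 h (Nfkbia and Zfp36), where 2.97% and 3.39% of all 11819 tested genes were called higher. At untrained 6 h the same 2 were called (3.53% of all genes higher) and at trained 6 h Nfkbia alone (2.41%). At 72 h 0 of 5 were called in untrained and 0 of 5 in trained muscle, with 0.00846% and 0.169% of all genes called in either direction. Of these 5, 1 (Nfkb2) had an unadjusted p below 0.05 in untrained and 0 in trained muscle, against 682 and 1379 of all tested genes. From 0 h to 6 h, 1 of 5 (Zfp36) was called lower in each state, where 2.60% (untrained) and 4.94% (trained) of all genes were called lower. The median log2 fold change over all 9 members was 0.38 at untrained 0 h and 0.13 at trained 0 h, beside 0.10 and 0.13 over the tested genes. At 6 h the medians were 0.04 and 0.01 for the members and 0.01 and -0.01 for the tested genes. The member medians take in the 4 members below the filter, and those of the tested genes hold only genes above it. Over the 36627 genes of the fit without a filter the median was 0.003 at untrained 0 h and 0.008 at trained 0 h.

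Separation of libraries was common among all genes and is a weaker criterion. All 3 libraries lay above all 3 sedentary ones for 5 of 9 members at untrained 0 h (Nfkb2, Nfkbia, Nfkbiz, Bcl3 and Zfp36) and for 4 of 9 at trained 0 h (the same without Bcl3), which held for 21.1% and 24.1% of the 14391 genes at least as abundant as Bcl3. At 6 h it held for 3 of 9 in each state (Nfkb2, Nfkbia and Zfp36), beside 11.0% and 13.0% of those genes. At trained 72 h all libraries lay below the sedentary ones for 2 of 9 (Tnfaip3 and Bcl3; 12.5% of genes) and below the untrained ones for 3 of 9 (Nfkb2, Tnfaip3 and Bcl3; 22.5% of genes). Tnfaip3 lay below sedentary at 0 h as 1 of 9 members in each state, beside 5.12% (untrained) and 3.43% (trained) of genes. At 6 h 2 of 9 lay below in untrained muscle (Tnfaip3 and Bcl3; 8.82% of genes) and 1 of 9 in trained muscle (Tnfaip3; 14.9%). From 0 h to 6 h Nfkbia moved above its 0 h libraries in both states (7.11% and 6.71% of genes). Over the same interval 3 of 9 moved below in untrained muscle (Nfkbiz, Bcl3 and Zfp36; 19.0% of genes) and 4 of 9 in trained muscle (these and Nfkb1; 32.1%).

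The study trained mice in order to ask how training alters the response, and no member differed by a call between trained and untrained muscle at the same time. In limma, 0 of 5 members were called at each of the 3 times, where 0%, 2.01% and 0.245% of all tested genes were called in either direction, in order of time. Of the 5, 0 had an unadjusted p below 0.05 at 0 h, 0 at 6 h and 1 (Nfkb2) at 72 h, against 143, 2166 and 1769 of all genes. The difference for Nfkbia was -0.01 at 0 h (95% confidence interval -0.26 to 0.24), -0.02 at 6 h (-0.27 to 0.24) and 0.01 at 72 h (-0.24 to 0.27). That for Zfp36 was 0.25 at 0 h (-0.15 to 0.66), -0.26 at 6 h (-0.67 to 0.15) and 0.10 at 72 h (-0.30 to 0.51). The intervals of Nfkbia lie inside a difference of 1.5-fold in either direction, and those of Zfp36 at 0 h and 6 h do not. At 0 h the comparison shares a library between its 2 groups, and without it the difference was -0.01 for Nfkbia and 0.38 for Zfp36 (-0.11 to 0.87).

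Of 12 other subunits and inhibitors above the filter, 2 were called higher than sedentary at 0 h in each state, beside 2.97% (untrained) and 3.39% (trained) of all tested genes. Zfp36l1, a paralogue of Zfp36 that also destabilises messages, stood at 5.32 ± 0.957 TPM (SD, n = 3) in sedentary muscle. It rose at 0 h to 10.7 ± 1.08 TPM in the untrained and 11.3 ± 0.804 TPM in the trained group, and was at 5.45 ± 1.07 and 5.39 ± 0.506 TPM at 6 h. Its log2 fold changes were 0.95 (limma adjusted p = 1.3e-04) and 1.03 (limma adjusted p = 5.9e-05). Zc3h12a, which encodes the ribonuclease regnase-1, rose by 0.69 (limma adjusted p = 0.0066) and 0.83 (limma adjusted p = 0.0014). At untrained 6 h 1 of 12 was called, Otulin, a deubiquitinase for linear ubiquitin chains, by 0.86 (limma adjusted p = 0.0013), and at trained 6 h 0 of 12, beside 3.53% and 2.41% of all tested genes. The median over the list was 0.13 at untrained 0 h and 0.18 at trained 0 h.

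Of 17 kinases and adaptors tested, 1 was called higher at 0 h and 1 at 6 h in each state, a single gene each time, beside the shares of all genes just given. At 0 h it was Irak2, a kinase of IL-1 and Toll-like receptor signalling. It rose by 0.71 in untrained (limma adjusted p = 0.0015) and by 0.74 in trained muscle (limma adjusted p = 0.0010), and under TPM rescaled without the mitochondrial genome and the most abundant genes the call was lost in both. At 6 h Irak2 was called in trained muscle (0.63, limma adjusted p = 0.0038), and Map3k14, the NF-kB inducing kinase of the non-canonical branch, in untrained muscle (0.82, limma adjusted p = 0.0016). Map3k14 held 3.33, 1.99 and 3.15 TPM at untrained 6 h and 1.74, 1.43 and 1.78 TPM at trained 6 h, beside 1.17, 1.33 and 1.56 TPM in sedentary muscle. The difference between the training states was -0.61 (limma adjusted p = 0.025), and the call was lost under either other scaling, with only those 2 groups in the model, with a pseudocount of 1, and on leaving out any of the 6 libraries but untrained 6 h replicate 2.

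Receptors and ligands were mostly too low to test, with 4 of 10 receptors and 1 of 8 ligands above the filter. Of the receptors, Tnfrsf12a, which encodes the TWEAK receptor Fn14, was called in every comparison but that of untrained 72 h with sedentary and that between training states at 0 h. Sedentary libraries held 10.8, 10.3 and 9.32 TPM. The level was 88.3, 114.7 and 93.3 TPM at untrained 6 h and 43.9, 26.1 and 25.1 TPM at trained 6 h, and at trained 72 h it was 4.21, 3.52 and 3.09 TPM. The log2 fold change against sedentary was 3.22 ± 0.18 (SE; limma adjusted p = 4.1e-08) at untrained 6 h and 1.55 ± 0.18 (limma adjusted p = 9.0e-05) at trained 6 h. At 0 h it was 0.81 and 0.74 (limma adjusted p = 0.011 and 0.018), and at trained 72 h -1.38 (limma adjusted p = 0.010). Without the shared library the 0 h changes were 0.75 and 0.64 and no longer called, and without trained 72 h replicate 2 the last change was -1.37 and not called (limma adjusted p = 0.082). Some macrophage markers were called in part of these comparisons. Cd68 was called higher than sedentary at untrained 6 h (1.62, limma adjusted p = 6.4e-05). It was lower in trained than untrained muscle at 6 h (-1.47, limma adjusted p = 4.7e-04) and 72 h (-1.24, limma adjusted p = 0.012), and Csf1r at 6 h (-0.78, limma adjusted p = 0.0071). Csf1r was also called higher at untrained 6 h (0.61, limma adjusted p = 0.019), where the other macrophage markers above the filter were not called. Cd68 was called at untrained 72 h as well (1.53, limma adjusted p = 0.012), where Tnfrsf12a was not. Against sedentary, Cd68 was not called at 0 h, at trained 6 h or at trained 72 h (0.30, limma adjusted p = 0.61). The part of macrophages in the values of Tnfrsf12a and Map3k14 was not tested.

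Of 8 targets above the filter, 2 were called higher at 0 h in each state (2.97% and 3.39% of all tested genes), Ier3 and Bcl2l1, both of which encode proteins of cell survival. Ier3 rose by 0.92 (limma adjusted p = 0.0020) and 1.10 (limma adjusted p = 3.9e-04), and Bcl2l1 by 1.10 (limma adjusted p = 1.1e-04) and 0.95 (limma adjusted p = 4.3e-04). Irf1, a transcription factor gene named here after its values were seen, went the other way by -0.48 (limma adjusted p = 0.011) and -0.41 (limma adjusted p = 0.025), short of the size threshold. At 6 h 0 of 8 were called in either state. From 0 h to 6 h, Zfp36l1 (-0.92), Ier3 (-0.69) and Bcl2l1 (-0.62) were called lower in untrained muscle, and Zfp36l1 (-1.01), Ier3 (-1.11) and Gadd45b (-1.22) in trained muscle. Gadd45b held 20.9 (the shared library), 10.7 and 22.0 TPM at trained 0 h, which overlapped with sedentary muscle (15.9, 12.0 and 10.4 TPM). Its trained 6 h libraries (6.54, 7.88 and 6.77 TPM) lay below the sedentary ones. The call of Bcl2l1 was lost under either other scaling (-0.54 and -0.52). 

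**Figure D4:**
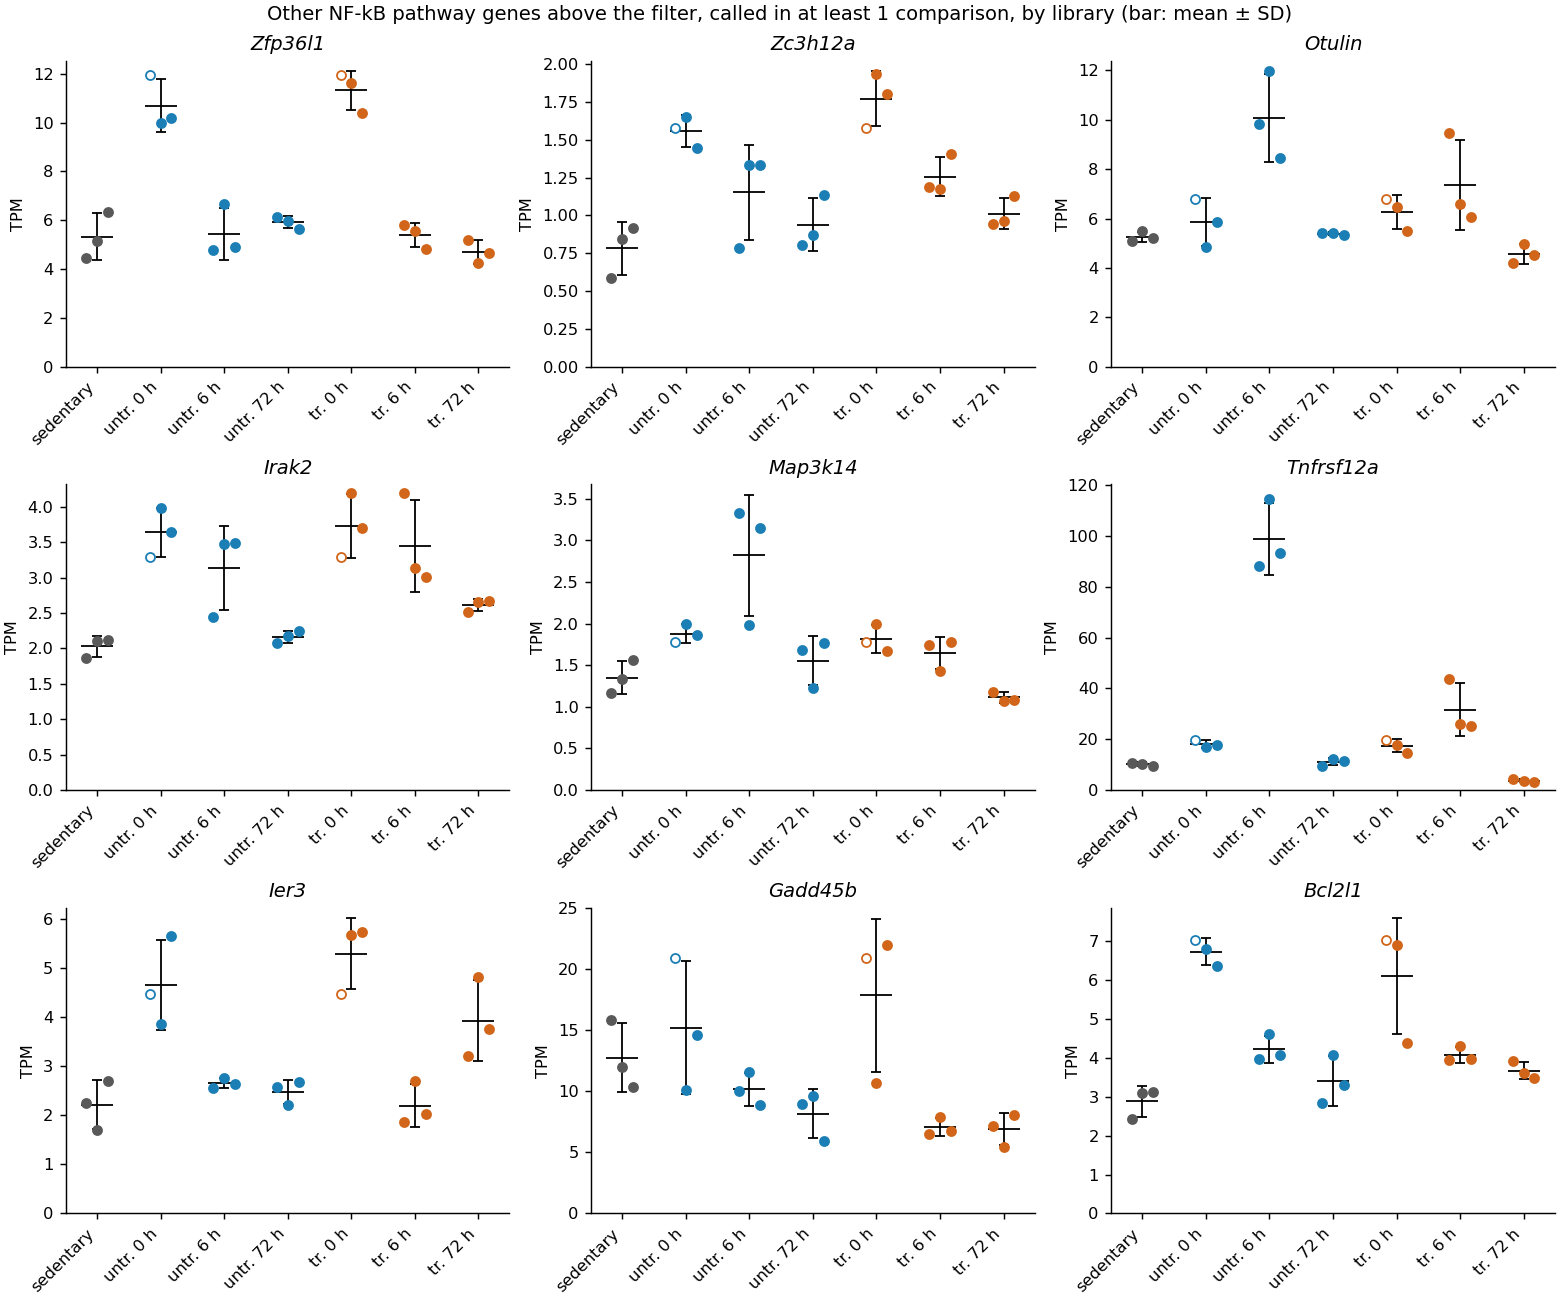
TPM (y axis, from 0) of the 9 other pathway genes above the filter that were called in at least 1 comparison, by group. Points are libraries, open points the library deposited in both 0 h groups, bars the mean ± SD of 3; Zfp36l1, Zc3h12a, Irak2, Ier3 and Bcl2l1 were higher than sedentary at 0 h, and Tnfrsf12a was highest at untrained 6 h (88.3 to 114.7 TPM).

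Most cytokine ligands and chemokine targets lay below the filter and are given from the fit without one, named after their values were seen. Of 8 ligands in that fit 2 were called higher at untrained 0 h (Tnf and Il1b) and 1 at trained 0 h (Tnf), and of 20 targets 5 and 4, of which Cxcl1 and Ptgs2 in both states and Ccl2 in untrained muscle were below the filter. In that fit 1.15% (untrained) and 1.29% (trained) of 36627 genes were called higher. Cxcl1, a chemokine for neutrophils, held 0.0185 to 0.118 TPM in sedentary muscle. At 0 h it held 1.25, 0.961 and 2.83 TPM in untrained and 1.25, 0.982 and 3.11 TPM in trained muscle, and at 6 h 0.0270 to 0.191 TPM. Its changes at 0 h were 1.81 (limma adjusted p = 0.0015) and 1.86 (limma adjusted p = 0.0012). Ptgs2, which encodes cyclooxygenase-2, rose from 0.0183 to 0.0476 TPM in sedentary libraries to 0.362 to 0.645 TPM in untrained and 0.490 to 1.29 TPM in trained muscle (0.90 and 1.27, limma adjusted p = 0.0022 and 9.7e-05). Tnf held 0.0502, 0.0858 and 0.0884 TPM in sedentary muscle, 0.375, 0.265 and 0.457 TPM at untrained 0 h and 0.375, 0.145 and 0.653 TPM at trained 0 h. Its changes of 0.59 and 0.59 (limma adjusted p = 0.034 and 0.030) lay at the threshold on size and were called in 4 of 14 alternatives in each state. Leaving out the shared library was among the alternatives that lost the call of Tnf in both states. Il1b held 0.0287 to 0.0624 TPM in sedentary muscle, 0.333, 0.258 and 0.573 TPM at untrained 0 h and 0.333, 0.327 and 0.155 TPM at trained 0 h, and was called in untrained muscle (0.70, limma adjusted p = 0.0011), though not without untrained 0 h replicate 3 or with a pseudocount of 1. All 4 genes were separate from sedentary muscle at 0 h in every library. Such separation upwards held for 21.1% (untrained) and 24.1% (trained) of the 14391 genes at least as abundant as Bcl3. The share among genes as low as Tnf was not computed, and the 4 genes were named for their calls. From 0 h to 6 h Cxcl1, Ptgs2 and Tnf were called lower in both states and Il1b in untrained muscle (1.01% and 1.70% of genes). With a pseudocount of 1 the falls of Tnf in both states and of Il1b and Ptgs2 in untrained muscle were not called. Nor was the rise of Ptgs2 at untrained 0 h. Without untrained 0 h replicate 3 the untrained falls of Tnf and Il1b lost their call. The trained fall of Tnf lost it without trained 0 h replicate 3, and the untrained fall of Tnf also without the shared library.

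Ccl2 and Cxcl10, chemokines for monocytes and for T cells, differed at 6 h between the training states. Ccl2 held 0.119 to 0.303 TPM in sedentary muscle, 0.572, 3.12 and 2.67 TPM at untrained 0 h and 1.37, 2.68 and 2.21 TPM at untrained 6 h. In trained muscle it held 0.572, 0.710 and 0.739 TPM at 0 h and 0.560, 0.139 and 0.106 TPM at 6 h. The value of 0.572 TPM in both 0 h groups is that of the shared library. Without it the untrained 0 h libraries (3.12 and 2.67 TPM) stood above the trained ones (0.710 and 0.739 TPM). With that library in both groups, the difference of Ccl2 between training states at 0 h was not called. Cxcl10 held 0.160, 0.285 and 0.721 TPM in sedentary muscle, 2.07, 2.00 and 0.876 TPM at untrained 6 h and 0.145, 0.124 and 0.0750 TPM at trained 6 h. At untrained 6 h 2 of 20 targets were called higher, Ccl2 (1.85, limma adjusted p = 0.0064) and Cxcl10 (1.27, limma adjusted p = 0.010), beside 1.13% of genes. The trained libraries at 6 h lay below the untrained ones by -1.77 for Ccl2 (limma adjusted p = 0.017) and -1.75 for Cxcl10 (limma adjusted p = 0.0018), where 0.412% of genes were called lower. In models of the compared groups alone, none of the calls of these 6 genes remained. Ccl2 at untrained 0 h (1.72, limma adjusted p = 0.011) also lost its call without sedentary replicate 1, untrained 0 h replicate 2 or untrained 0 h replicate 3. The difference of Ccl2 between training states lost its call without untrained 6 h replicate 2 or 3 or trained 6 h replicate 2 or 3, and the rise of Cxcl10 at untrained 6 h without sedentary replicate 1 or untrained 6 h replicate 2. The number of reads behind levels this low is not known.

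**Figure D5:**
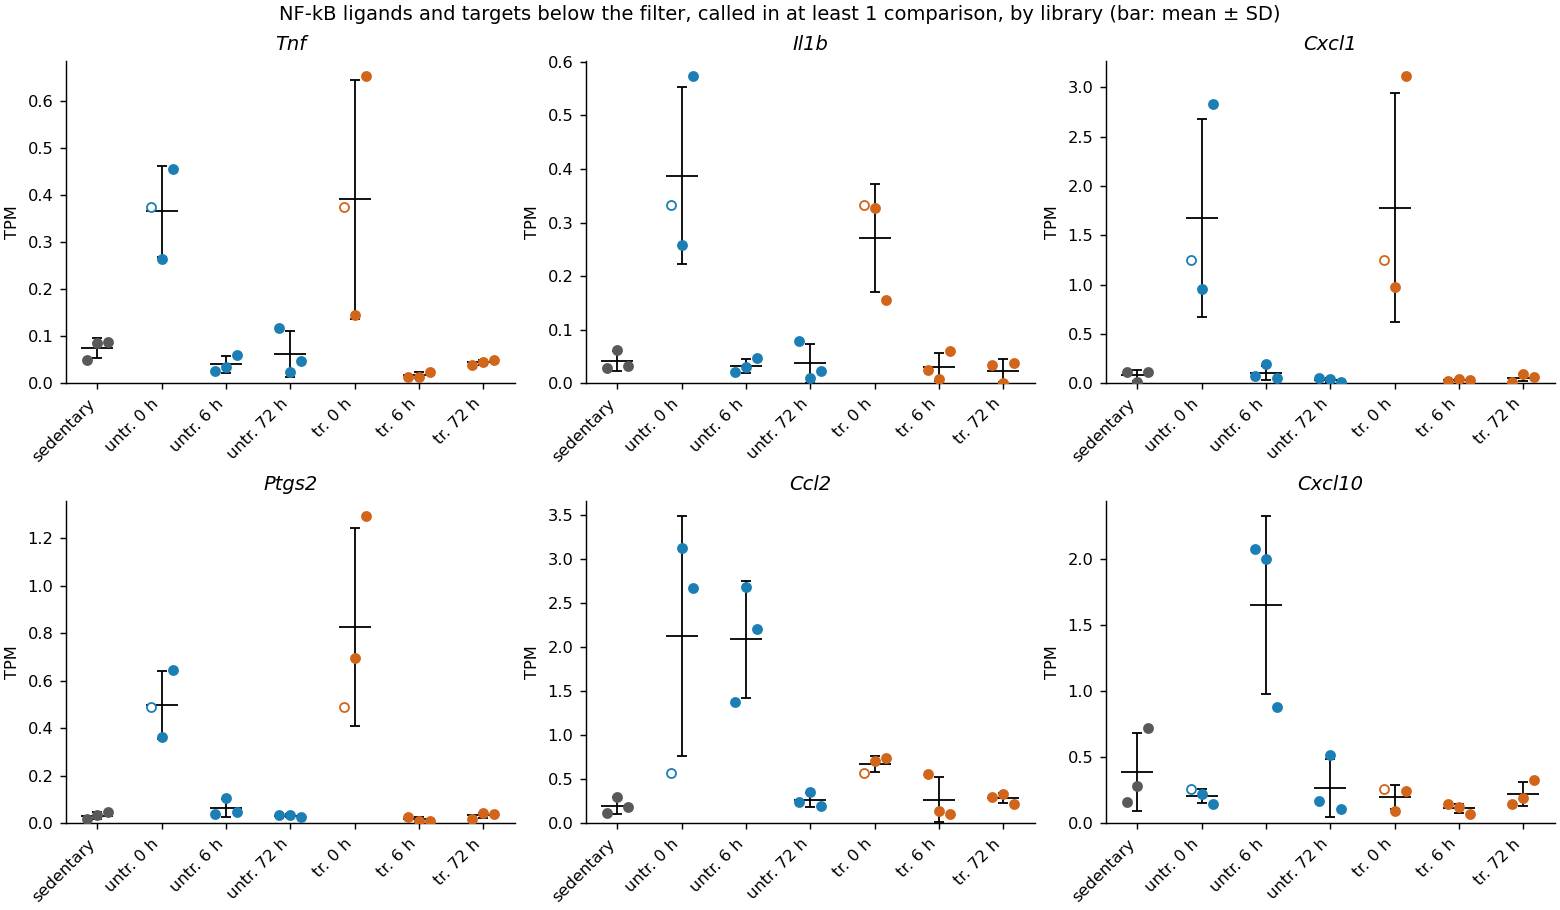
TPM (y axis, from 0) of 6 ligands and targets below the expression filter, by group. Points are libraries, open points the library deposited in both 0 h groups, bars the mean ± SD of 3; Tnf, Il1b, Cxcl1 and Ptgs2 stood highest at 0 h, and Ccl2 and Cxcl10 were higher in untrained than in trained muscle at 6 h.

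The genes whose pattern was most like that of a member were found from Pearson's r of log2 values over the 20 distinct libraries, as a description with no test. The libraries share groups, so r mainly follows the group means. Zfp36 was closest to Sik1 (r = 0.99) and Btg2 (0.98), and Nfkbia to Slc25a5 (0.93) and Mt1 (0.92). Nfkb2 was closest to Gm12498 (0.89) and Phb (0.89), Nfkb1 to Nfatc3 (0.90) and Dhx29 (0.88), and Relb to Abhd16a (0.77) and Klhl26 (0.77). Among the members the highest r was 0.67, between Nfkb2 and Zfp36, and the lowest -0.31, between Nfkbia and Bcl3.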

How the data were processed

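RNA-seq of bulk quadriceps was read from a table of TPM values as deposited. Per the methods and the submitters' processing notes, the authors mapped paired-end reads to GRCm39 with STAR 2.7.9 and quantified them with Salmon 1.5.0 (the notes also name DESeq2 3.16). TPM sums lay between 997304 and 997921 per library and carry no depth.

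Values were fitted as log2(TPM + 0.5) in limma 3.58.1 (R 4.3.3), with 7 group means, 14 residual degrees of freedom and a variance trend, two-sided, for 11 comparisons. Members and pathway genes under a mean of 1 TPM were taken from the fit with no filter. The procedure was tested on simulated data. The labels do not say which animals the libraries came from, so p-values measure the spread between these samples, which may be technical. Replicate numbers did not pair libraries (62 same-numbered pairs, correlation of deviations -0.115 to 0.134). Promoters came from RefSeq.

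The members, pathway lists and markers were chosen with earlier results of these data known. Named are the 9 members, at most 4 called genes with non-overlapping libraries of each pathway list per comparison, and the 2 tested genes most like each tested member; pathway genes below the filter and Irf1 were added after their values were seen. Alternatives were pseudocounts of 0.1 and 1, no filter, a filter at 5 TPM, 2 other scalings, only the groups compared, no variance trend, a replicate block, and leaving out the shared library or each replicate, and, added later, Nfkbiz without trained 72 h replicate 2.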

Additional observations from a re-analysis of the deposited data

Results flagged for a closer look

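In muscle taken 6 h and 72 h after the bout, genes of the wider pathway lists differed between trained and untrained mice in a direct test of the difference (limma on log2(TPM + 0.5)). Tnfrsf12a, the TWEAK receptor gene, was lower in trained muscle by -1.66 on the log2 scale at 6 h (limma adjusted p = 6.1e-05), at 43.9, 26.1 and 25.1 TPM against 88.3, 114.7 and 93.3 TPM, and no libraries overlapped. With only those 2 groups in the model the adjusted p in limma was 0.12. At 72 h the difference of Tnfrsf12a was -1.51 (limma adjusted p = 0.0038), at 4.21, 3.52 and 3.09 TPM in trained against 9.56 to 12.4 TPM in untrained muscle, and it remained called in each alternative run. Map3k14, the NF-kB inducing kinase gene, differed by -0.61 at 6 h (limma adjusted p = 0.025), a call that was lost in several alternatives, among them both other scalings (-0.58 and -0.54). Among genes below the expression filter, Ccl2 (-1.77, limma adjusted p = 0.017) and Cxcl10 (-1.75, limma adjusted p = 0.0018) were lower in trained muscle at 6 h, and with only those 2 groups in the model neither was called. Summed macrophage markers ran from 39.8 to 84.0 TPM in untrained and from 37.1 to 54.8 TPM in trained muscle at 6 h, and from 63.9 to 68.7 and from 47.2 to 54.3 TPM at 72 h, where they did not overlap. Of these markers, Cd68 (-1.47, limma adjusted p = 4.7e-04) and Csf1r (-0.78, limma adjusted p = 0.0071) were called lower in trained muscle at 6 h, and Cd68 at 72 h (-1.24, limma adjusted p = 0.012). Their part in these differences was not tested. No member of the list of 9 was singled out in this way.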

How the results depend on the processing

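Of 1483 values of the 99 member changes under alternatives, 1387 kept their direction and their side of the threshold, 7 fell below it, 10 rose past it and 79 changed sign, 0 of them of a called change. Counts of members called moved as follows, and where no cause is named the cause was not tested. Under TPM rescaled without the mitochondrial genome and the 10 highest genes, the count was 1 in place of 2 at untrained 0 h and at trained 0 h, and 2 at trained 6 h in place of 1. From 0 h to 6 h in trained muscle it was 2 in place of 1, with a rise of Nfkbia called beside the fall of Zfp36. Under median-of-ratios scaling it was 1 at trained 0 h and 2 at trained 6 h. In a model of the compared groups alone it was 1 at untrained 6 h. At trained 6 h it was also 2 with a pseudocount of 0.1 and without the shared library, and it ran from 1 to 2 on leaving out single replicates (2 without sedentary replicate 3). With no filter it was 2 from 0 h to 6 h in untrained muscle, since Bcl3 was then tested. The fit with a replicate block left the count of members called the same in all 11 comparisons, with 2 at untrained 0 h, 2 at untrained 6 h, 2 at trained 0 h, 1 at trained 6 h, 1 from 0 h to 6 h in each state and 0 elsewhere; replicate numbers did not pair the libraries, the median correlation being 0.018.

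Small changes, none of them called, changed sign under other scalings: Nfkb2 at trained 72 h against sedentary to 0.02 (rescaled), Nfkb2 from 0 h to 6 h in trained muscle to 0.08 (median of ratios) and 0.13 (rescaled), and Nfkbia between training states at 6 h to 0.02 and 0.07. Leaving out single replicates changed the sign of others, with ranges of -0.01 to 0.20 for Nfkbia and -0.09 to 0.31 for Zfp36 at untrained 72 h, -0.12 to 0.14 for Nfkbiz at trained 6 h, and -0.08 to 0.01 for Nfkb2 and -0.08 to 1.32 for Nfkbiz at trained 72 h, all against sedentary. Between training states the ranges were -0.06 to 0.06 for Nfkbia and -0.01 to 0.16 for Nfkbiz at 0 h. At 6 h they were -0.02 to 0.10 for Nfkb2, -0.11 to 0.04 for Nfkbia, -0.01 to 0.25 for Nfkbiz, -0.01 to 0.19 for Tnfaip3 and -0.09 to 0.11 for Bcl3. At 72 h they were -0.09 to 0.12 for Nfkbia, -0.00 to 1.40 for Nfkbiz and -0.02 to 0.19 for Zfp36. From 0 h to 6 h in trained muscle the range of Tnfaip3 was -0.00 to 0.21. The high value of Nfkbiz in trained 72 h replicate 2 sets its ranges at 72 h, and without that library 3 changes of Nfkbiz elsewhere were called (trained 0 h 0.65, and -0.67 and -0.63 from 0 h to 6 h), an alternative chosen after seeing the data. For Nfkb1, Relb and Icam1, 49 values changed sign, all between -0.11 and 0.12. Of the 746 values of the 50 called changes of other pathway genes, 645 remained called, 101 did not, and 0 changed sign. Depth is unknown, so how far counting error limits the members and pathway genes under 1 TPM could not be computed.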
